A study of Mus musculus with 13 samples.

Results

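Cx3cr1-positive macrophages of the mouse liver, named monocyte-derived without a test of their descent, were followed through a diet model of cholangitis and, in 1 library, through the recovery from it. Member cells were chosen by their counts of unique molecular identifiers (UMIs, each standing for 1 captured mRNA molecule) of 9 genes. A barcode was a member if it held at least 1500 UMIs, at least 1 UMI of Cx3cr1, at least 5 UMIs of C1qa, C1qb and C1qc together, at most 1 UMI of Cd5l and none of Gpnmb, Clec4f, Epcam and Cd3e. This rule found 1955 members among 95563 cells of 13 libraries. The count was 239 at steady state, 346 at onset, 1277 at progression and 93 in recovery. The 9 genes of the rule are therefore no result, and they were left out of every test.

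The mice were male C57BL/6J animals of 6 to 12 weeks. Steady state comprised 2 libraries of day 0 without the diet. Onset comprised 4 libraries of days 3 and 5, and progression 6 libraries of days 9, 19 and 25, all on chow that held 0.1% of DDC. The letters stand for 3,5-diethoxycarbonyl-1,4-dihydrocollidine, which injures the bile ducts of mice. Recovery was a single library, named STOP, of 18 days of DDC followed by 7 days without it. Each day was sequenced with both of 2 isolation protocols, so that a library is given here as its day and protocol, as in D0 A, and STOP used protocol B. One protocol B library carries day 19 in its name and day 18 in its group tag, and is called D19 B. Protocol A sorted living Cd45+, Lyve-1+, Pdpn+, Epcam+ or Cd31+ Lyve-1- singlets together with autofluorescent stellate cells. Protocol B took living cells of a stellate cell preparation together with Cd45+ Itgax+ Cd64-, Epcam+ and Cd3e+ Lyve-1- cells. Cd64 is the product of Fcgr1 and is carried by most macrophages. The part of this gate in the results was not tested. The labels do not tie libraries to single mice, and p-values therefore measure the spread between libraries only.

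Macrophages of the liver have at least a pair of sources. Kupffer cells are the resident macrophages of the sinusoids, are long-lived and carry Clec4f, Vsig4 and Timd4. Blood monocytes enter the injured liver through the chemokine receptor Ccr2, lose Ly6c2 and take on C1q, Ms4a7 and Cx3cr1, the receptor of the chemokine fractalkine, as they turn into macrophages. In fatty, cholestatic and fibrotic liver, such cells can pass into lipid-associated or scar-associated macrophages, which carry Trem2, Gpnmb, Spp1, Cd9 and Lpl.

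Libraries held 28 to 510 members and 29307190 to 108602421 UMIs in all. The median UMI count per member was 5171 and 5650 at steady state, 10064 to 19597.5 at onset and 6877 to 14001 at progression, so genes of low level were seen less often in a cell of steady state. Mitochondrial genes took 0.912% to 2.45% of the members' UMIs at steady state and 2.02% to 4.26% on DDC. No barcode was a member in more than 1 library. A doublet caller marked 0% to 15.5% of the members of a library, and these cells were kept. Levels are given below as CPM, the share of a gene in the summed UMIs of a library's members (edgeR's counts-per-million scale), scaled by the trimmed mean of M-values (TMM). Sums over the marker genes of other cells, and the parts of a sum that single genes gave, are instead plain CPM without TMM. They are thus not on the same scale as the levels of single genes.

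Macrophage markers that the rule did not use were detected in members more often than in T cells. Ms4a7, a macrophage membrane protein, had a UMI in 48.1% to 74.1% of the members of a time course library, against 0% to 7.41% of T cells, whose share shows the background of free RNA. Csf1r, the receptor of the macrophage growth factor, had one in 79.3% to 100% of members and 2.30% to 18.5% of T cells. Fcgr1 had one in 51.0% to 96.4% of members and 0% to 5.41% of T cells. Its level was 159 CPM in D0 A and 166 CPM in D0 B, a library of the Cd64- gate. Mertk, a receptor for dying cells, was less often seen, in 17.9% to 62.9% of members and 1.97% to 30.8% of T cells. Members held more UMIs than T cells, and with each cell thinned to 1500 UMIs the shares in members and T cells were 23.5% to 53.8% and 0% to 3.03% for Ms4a7, 46.9% to 72.0% and 0% to 7.50% for Csf1r and 8.64% to 29.5% and 0% to 2.70% for Fcgr1. For Mertk they were 3.57% to 17.8% and 0.557% to 7.69%, and these ranges overlapped.

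Defining markers of Kupffer cells were low in members. Timd4 was found in 0% to 2.55% of members and 0% to 3.85% of T cells, which is the level of background. Vsig4, a complement receptor of Kupffer cells, ranged over 2.44 to 31.1 CPM in members and over 1386 to 2454 CPM in cells of a Kupffer gate (Clec4f-positive, Cd5l-high). Marco, a scavenger receptor of Kupffer cells, ranged over 0 to 28.0 CPM in members and 244 to 5344 CPM in the Kupffer gate. Other genes of the Kupffer list were shared. On a CPM scale set jointly over both populations, as for all Kupffer values here, Id3 at steady state was 1351 to 1600.2 CPM in members and 1079 to 1366 CPM in Kupffer cells, and Xlr was 24.9 to 59.9 CPM and 38.7 to 66.9 CPM in the same order. Ccr2 was detected in 48.9% to 96.4% of members and 7.41% to 40.0% of T cells. Its level was 349.9 to 981 CPM in members and 8.24 to 149 CPM in Kupffer cells. Ly6c2 was low in members, at 6.92 to 90.3 CPM, against 634 to 1310 CPM in a gate of C1q-negative monocytes, which itself asks for Ly6c2, so this gap follows from the gate. Vsig4 and Marco were thus lower in members than in the Kupffer gate, and Timd4 was set beside T cells only. The Kupffer gate asks for Clec4f and Cd5l, which the rule excludes or limits in members, and the part of the gates in these gaps was not tested. A descent from monocytes was not measured.

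The edges of the rule were broad. Of the 1955 members, 426 had exactly 1 UMI of Cx3cr1, and a further 1578 barcodes met every other condition with none. At the C1q limit, 55 members lay on the minimum and 73 barcodes lay 1 UMI under it. Gpnmb removed more cells than any other condition tested at its edge, since 2041 barcodes met all conditions but that one. These were 11 at steady state, 313 at onset and 1666 at progression, so that on DDC the members were what remained after more cells had been left out for Gpnmb, a count that also moves with the depth per cell. Clec4f or Cd5l removed a further 724 barcodes.

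Members were counted as a share of C1q-high cells, which are barcodes with at least 5 C1q UMIs and no Epcam or Cd3e. At steady state the share was 14.5% in D0 A and 46.0% in D0 B. At onset it was 5.81% in D3 A, 19.05% in D3 B, 11.8% in D5 A and 33.1% in D5 B. At progression it ranged from 4.62% to 25.7%, with a median of 19.2%, and in STOP it was 17.6%. On every day the share was higher with protocol B than with protocol A. As a share of Ptprc-positive cells, members were instead lower with protocol B on every day, with 2.76% against 4.72% on day 0, 2.17% against 7.86% on day 9 and nearly equal values of 3.23% and 3.26% on day 19. The part of the sort gates in these shares was not tested. Across the 10 DDC libraries the mean share was 12.8 percentage points lower than at steady state (exact permutation test within protocol, two-sided, p = 0.0556, where 36 arrangements allow no p below 0.0278). The difference was 4.16 points lower within protocol A and 21.4 points lower within protocol B. Without D9 A it was 13.6 points lower (exact permutation p = 0.0333, the smallest that 30 arrangements allow). Without any other single DDC library, the exact permutation p was 0.0667. With each cell thinned to 1500 UMIs before the rule was applied, the difference was −0.660 points (exact permutation p = 0.861), and with Ptprc-positive cells as the denominator it was −0.0997 points (exact permutation p = 0.972). Progression and onset differed by 0.0841 points (exact permutation p = 0.98).

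**Figure D1:**
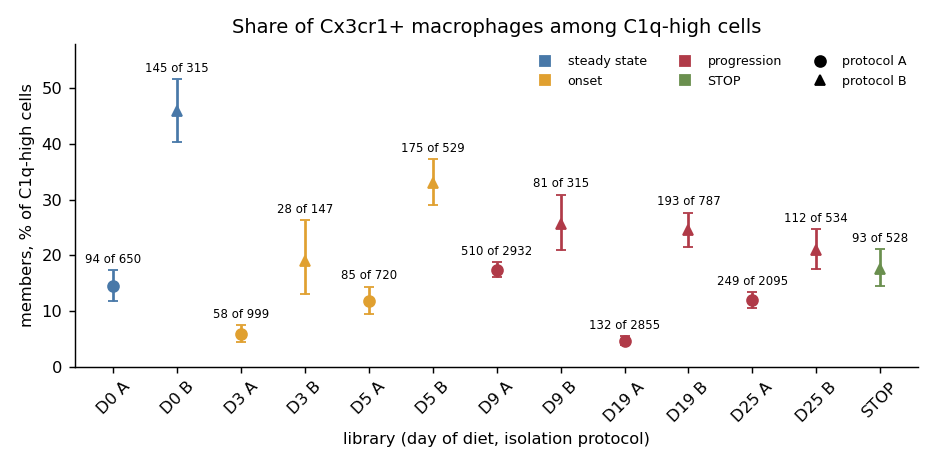
Share of members among C1q-high cells in each of the 13 libraries, in percent, with exact binomial 95% intervals that cover counting error only. Circles are protocol A and triangles protocol B, colours are stages, and the numbers above the points are members and C1q-high cells. On each day the triangle lies above the circle, in percentage points by the most on day 0 (46.0% against 14.5%) and by the least on day 9 (25.7% against 17.4%).

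Progression against steady state asked how members changed once the disease was established. Trem2, Lpl and Lgals3 of the lipid-associated list, S100a4 and the chemokine Ccl9 rose, while the chemokines Ccl4, Ccl7 and Ccl8, the lectin Cd207, the receptor Lilra5, 5 heat shock and immediate early genes and 3 genes of the type I interferon list fell. Of 9586 genes tested, 194 were called (edgeR quasi-likelihood test, Benjamini-Hochberg adjusted p under 0.05, 2.02% of genes), with 67 higher (0.699%) and 127 lower (1.32%). Many of these calls were lost when 1 of the 2 libraries of steady state was left out, which also leaves that stage with a single library. Of 53 called genes named here or in the lists, 37 were no longer called without D0 B and 16 without D0 A, and 13 were called whichever of the 12 libraries was left out. These 13 were Trem2, Lgals3, Lpl, S100a4 and Ccl9 among those that rose, and Cd207, Cd4, Dnajb1, Gbp3, Ifi44, Lilra5, Ly6a and Mup3 among those that fell.

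Trem2 encodes a lipid receptor that drives the lipid-associated state. Its level was 149.9 CPM in D0 A and 191 CPM in D0 B. At onset it was 303, 386, 308 and 596 CPM in D3 A, D3 B, D5 A and D5 B, and at progression it ran from 498 through a median of 623 to 689.8 CPM. All 10 DDC libraries lay above both libraries of steady state. The change at progression was 3.64-fold (log2 1.87 ± 0.28 SE, adjusted p = 0.00333), and that at onset was 2.32-fold with an adjusted p of 0.0682. Lpl, the lipoprotein lipase that frees fatty acids from lipoproteins, stood at 149.9 and 83.6 CPM at steady state. It reached 554, 759, 364 and 407 CPM at onset and 457 to 689 CPM at progression, with a median of 641 CPM. Again no DDC library overlapped with steady state, and the change at progression was 5.26-fold (log2 2.39 ± 0.35 SE, adjusted p = 0.00269).

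Lgals3 encodes galectin-3, a secreted sugar-binding protein of activated macrophages. It was 209 CPM in D0 A and 901 CPM in D0 B. Its levels were 1626, 2068, 1881 and 2283 CPM at onset and 1454 to 2487 CPM at progression, with a median of 1878 CPM. The gap between both libraries of steady state was wide, but all DDC libraries lay above them, and the change at progression was 3.83-fold (log2 1.94 ± 0.34 SE, adjusted p = 0.00966). Its size depended on the library of steady state, with a log2 change of 1.26 without D0 A and 3.04 without D0 B.

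S100a4 is a calcium-binding protein of motile cells and recent monocyte descendants. It was measured at 60.8 and 127 CPM at steady state, at 520.4, 648, 813 and 1471 CPM at onset and at 279 to 1242 CPM at progression, with a median of 626 CPM. The change was 9.59-fold at onset (adjusted p = 0.00428) and 6.86-fold at progression (log2 2.78 ± 0.43 SE, adjusted p = 0.0039). A stricter gate, which also asked for a UMI of Adgre1, Fcgr1 or Mertk and for none of 7 genes of other cell types, left D3 B and D9 B with too few cells and, in the other 10 libraries, gave adjusted p-values of 0.0751 and 0.0615. In D0 A, 41 of 94 members had a UMI of Lgals3 and 8 had one of S100a4, and all 8 were among the 41. In D9 B, 74 of 81 members had Lgals3, 69 had S100a4 and 67 had both, at a higher depth per cell.

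Of the 17 genes of the lipid-associated list that were tested, 7 rose and none fell, and their median log2 change was 1.36 against −0.015 over all genes tested. Besides Trem2, Lpl and Lgals3 these were Capg, an actin-capping protein, Ctsd, the lysosomal protease cathepsin D, the annexin Anxa4 and Syngr1, a vesicle protein. Capg rose 3.12-fold (log2 1.64, adjusted p = 0.014), and without D0 A the log2 change was 1.25 and not called (adjusted p = 0.064). Ctsd lay at 6.75 and 7.27 CPM at steady state and at 25.2 to 80.2 CPM at progression, and it lost its call without either library of steady state, as did Anxa4 and Syngr1. Their log2 changes moved little, from 2.83 to 2.70 without D0 A and 3.04 without D0 B for Ctsd, from 1.64 to 1.44 and 1.96 for Anxa4 and from 3.75 to 4.08 and 3.44 for Syngr1. Spp1, which encodes osteopontin, had 40.5 and 19.4 CPM at steady state and 175 to 1447 CPM at progression without passing the test (log2 4.52 ± 1.12 SE, adjusted p = 0.0521). Its highest value, 3331 CPM, was that of D3 B. Summed cholangiocyte markers, in plain CPM without TMM, were also highest in that library, at 3848 CPM against 383 to 2136 CPM in the other 11. Spp1 is itself one of the 10 genes of this sum, so the sum is no separate measure. Krt19, Sox9 and Cldn7 of this list had no UMI there, while Krt7, Krt8, Krt18, Tm4sf4, Clu and Anxa5 had UMIs. The part of cholangiocyte RNA in the value of Spp1 was not tested.

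Classical monocyte genes had 4 higher and no lower members of 15 tested, with a median log2 change of 1.48. Chil3, a chitinase-like lectin of monocytes, had no UMI in either library of steady state. It was found at 45.5, 33.2, 11.1 and 84.0 CPM at onset and at 56.2 to 379.7 CPM at progression, with a median of 105 CPM. Against the limit of 3 UMIs over the steady-state group, it was at least 84.2-fold higher at progression and at least 26.1-fold higher at onset, of which the former was called (adjusted p = 0.0152) and was lost without D0 A (0.068) or D0 B (0.069). Fn1, the matrix protein fibronectin, rose from 33.8 and 4.85 CPM at steady state to 193 to 582 CPM at progression, with a median of 394 CPM (log2 4.43 ± 0.82 SE, adjusted p = 0.0122, and 0.0744 without D0 B). At onset it was 25.3, 152, 171 and 222 CPM, and the library of day 3 and protocol A overlapped with steady state. Thbs1, an adhesive matrix protein, rose 7.91-fold (adjusted p = 0.0357), a call that was lost without D0 B (0.136) and without 5 other libraries taken singly. Neither Ccr2 nor Ly6c2 was called.

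**Figure D2:**
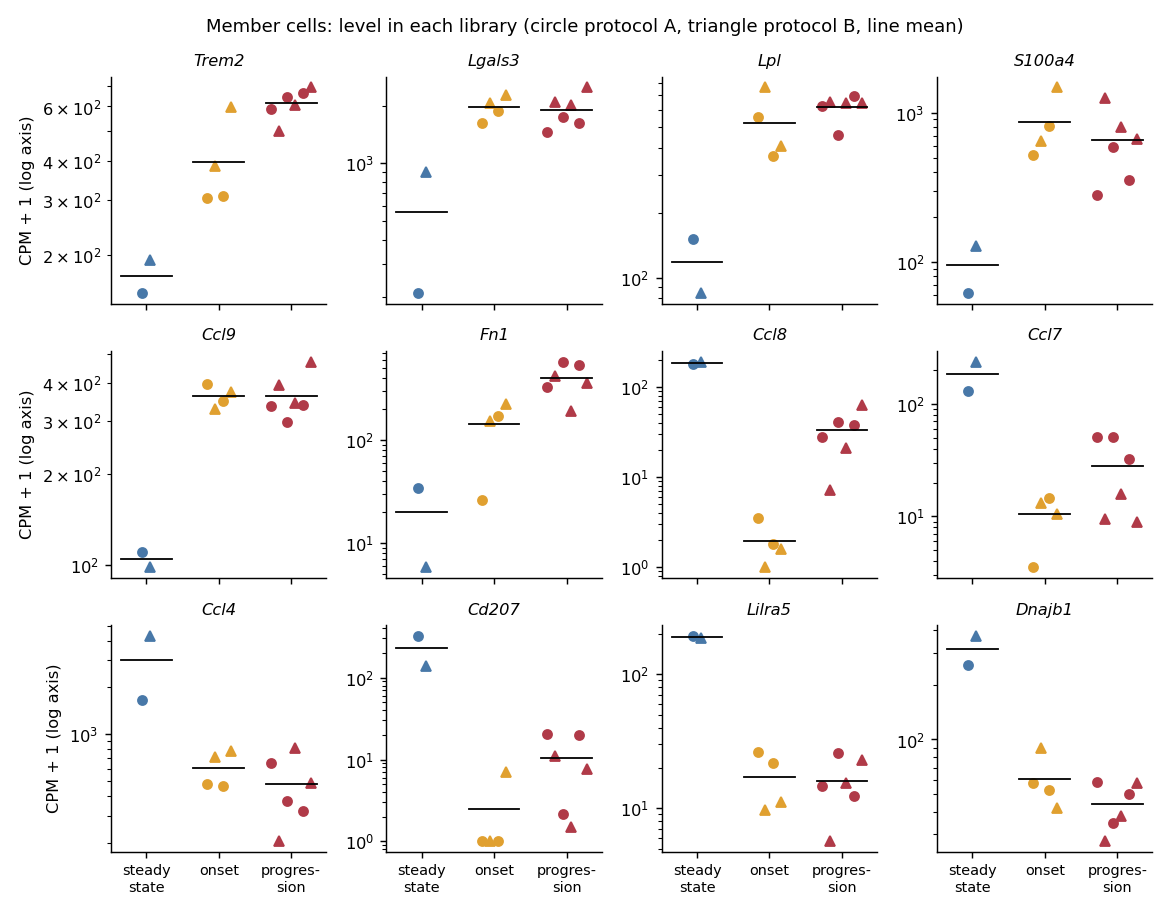
Level of 12 genes in the members of each time course library, as CPM plus 1 on a log axis that differs between panels. Circles are protocol A, triangles protocol B, colours are stages, and lines mark the mean of a stage. In the upper row all DDC libraries lie above steady state, for Trem2 from 303 CPM against at most 191 CPM. For Ccl8, Cd207 and Lilra5 all of them lie under it.

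Chemokines moved in both directions. Of 16 tested, 1 rose and 3 fell, and their median log2 change was −1.06. Ccl9, a ligand of the receptor Ccr1, was 109 and 96.9 CPM at steady state. At onset it was 397, 329, 347 and 374 CPM and at progression 298 to 471 CPM, with a median of 339.6 CPM (log2 1.80 ± 0.24 SE, adjusted p = 0.00164). Its receptor Ccr1 was also called higher (2.42-fold, adjusted p = 0.033), but not without D0 A (0.113), D3 A (0.0503) or D9 B (0.0557).

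Ccl8 and Ccl7, monocyte-attracting chemokines of a neighbouring gene cluster, fell. Ccl8 was 181 and 191 CPM at steady state. It was 2.53, 0, 0.796 and 0.596 CPM at onset and 6.21 to 61.6 CPM at progression, with a median of 32.2 CPM. All DDC libraries lay under steady state, and those of onset lay under all of progression. The fold was 5.85 lower at progression (log2 −2.55 ± 0.43 SE, adjusted p = 0.00654), and without D0 B the adjusted p was 0.0727. Ccl7 was 129.7 and 237 CPM at steady state, 2.53, 12.2, 13.5 and 9.53 CPM at onset and 7.95 to 50.3 CPM at progression, with a median of 23.2 CPM. It was 8.32-fold lower at progression (log2 −3.06, adjusted p = 0.00468), and under the stricter gate it was not called (adjusted p = 0.231). The log2 change of Ccl7 was −4.07 without D0 A and −1.69 without D0 B, where the call was lost. Ccl4, a chemokine that attracts leukocytes, was the most abundant of the 3, at 1672 and 4307 CPM at steady state against 204 to 817 CPM at progression. It was 5.84-fold lower (adjusted p = 0.00333, and 0.0624 without D0 B).

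Few cells carried Ccl8 at steady state, with a UMI in 7 of 94 members of D0 A and in 14 of 145 of D0 B. At onset it had one in 2 of 58, 0 of 28, 1 of 85 and 1 of 175 members. Ccl7 had a UMI in 10 and 30 members of D0 A and D0 B.

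Cd207 encodes langerin, a lectin receptor of Langerhans cells and of some macrophages and dendritic cells. It was 324 CPM in D0 A and 139 CPM in D0 B. At onset it was 0 CPM in D3 A, D3 B and D5 A and 5.96 CPM in D5 B, and at progression it was 0.48 to 19.4 CPM, with a median of 8.36 CPM. The change at progression was 23.8-fold lower (log2 −4.57 ± 0.62 SE, adjusted p = 0.00184, and 0.0827 with DESeq2). A UMI of Cd207 was present in 27 of 94 members of D0 A and in 12 of 145 of D0 B, against 0, 0, 0 and 3 members of the onset libraries.

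Lilra5, an activating receptor of the leukocyte immunoglobulin-like family, gave the smallest adjusted p among the genes named here. It was 193 and 184 CPM at steady state, 25.3, 8.74, 20.7 and 10.1 CPM at onset and 4.66 to 24.8 CPM at progression, with a median of 14.0 CPM. The levels of onset and progression overlapped and lay under steady state throughout, and the change at progression was 12.6-fold lower (log2 −3.66 ± 0.34 SE, adjusted p = 2.32e-04). Ly6a, which encodes the interferon-inducible surface protein Sca-1, was called lower at progression and not at onset. It was 232 and 434 CPM at steady state, 236, 55.9, 132 and 50.1 CPM at onset and 17.8 to 52.6 CPM at progression, with a median of 29.99 CPM (log2 −3.68 ± 0.38 SE, adjusted p = 2.99e-04). The log2 change of Ly6a was −4.61 without D0 A and −2.16 without D0 B. Cd81, a tetraspanin, was 1032 and 1649.9 CPM at steady state and 163 to 457 CPM at progression (4.82-fold lower, adjusted p = 0.0039, and 0.0761 without D0 B). Mmp13, the collagenase-3 that cleaves fibrillar collagen, was 208 and 172 CPM at steady state and 0 to 41.1 CPM at progression (11.7-fold lower, adjusted p = 0.0122, and 0.0705 without D0 B or 0.0731 with DESeq2). H2-M2, a non-classical MHC gene, was 37.8 CPM in D0 A, 470.0 CPM in D0 B and 0.776 to 37.4 CPM at progression, so its call rested on D0 B (adjusted p = 0.518 without it).

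Genes induced by type I interferon, the antiviral cytokine family, had few calls. Of 15 tested, 3 fell and none rose, all 15 had a log2 change under 0, and the median was −1.26. Ifi44 was 51.3 and 21.8 CPM at steady state, 40.4, 12.2, 22.3 and 7.15 CPM at onset and 0.96 to 8.58 CPM at progression, with a median of 4.02 CPM (log2 −3.03 ± 0.38 SE, adjusted p = 0.00109). Irf7, the transcription factor that amplifies the interferon response, was 131 and 217 CPM at steady state and 22.5 to 64.8 CPM at progression (adjusted p = 0.0152, and 0.189 without D0 B). Xaf1 behaved alike in the test (adjusted p = 0.0195, and 0.277 without D0 B). Of 12 targets of interferon gamma tested, 2 fell and none rose, with a median log2 change of −1.20. Gbp3, a guanylate-binding protein that attacks intracellular pathogens, was 90.5 and 70.3 CPM at steady state, 31.6, 55.9, 38.2 and 24.4 CPM at onset and 10.9 to 24.9 CPM at progression (3.88-fold lower, adjusted p = 0.00333).

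Antigen presentation by MHC class II had 2 lower and no higher genes of 12 tested, with a median log2 change of −1.05. Cd74, the invariant chain, was 17802 CPM in D0 A, 78182 CPM in D0 B and 3843 to 21816 CPM at progression. The libraries of progression overlapped with D0 A, and the call (adjusted p = 0.0397) was lost without D0 B (0.414) and without 6 other libraries taken singly. The same held for H2-Ob (adjusted p = 0.039, and 0.463 without D0 B).

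Heat shock and immediate early genes answer protein damage and handling of the cells. Of 16 tested, 5 fell and none rose, with a median log2 change of −1.09. The 5 were Dnajb1, Hspa1a, Hspa1b, Hsph1 and Dusp1. Dnajb1, a co-chaperone of Hsp70, was 258 and 373 CPM at steady state, 56.8, 89.1, 51.8 and 41.1 CPM at onset and 26.4 to 57.3 CPM at progression, with a median of 43.1 CPM (log2 −2.85 ± 0.29 SE, adjusted p = 2.99e-04). Steady state lay above all DDC libraries for this gene. Hspa1a and Hspa1b encode the inducible Hsp70 and are near-identical copies, so reads could be split between them. Hspa1b was 3045 CPM in D0 A and 466 CPM in D0 B, 405, 495, 70.9 and 55.4 CPM at onset and 13.9 to 468 CPM at progression, with a median of 28.2 CPM. Its change (16.8-fold lower, adjusted p = 0.0397) was not called without D0 A (0.166), D0 B (0.0727) or any of 6 other libraries. Hspa1a was 1803 and 572 CPM at steady state and 13.6 to 289.6 CPM at progression (adjusted p = 0.023), and was not called without D0 A (0.101), D0 B (0.0627) or D9 B (0.0579). Hsph1, a member of the Hsp110 family, was 346 and 69.0 CPM at steady state and 8.61 to 52.3 CPM at progression (adjusted p = 0.0122, and 0.151 without D0 A). Hspa1a, Hspa1b and Hsph1 were thus highest in D0 A. Dusp1, a phosphatase that dampens MAP kinases, fell 1.79-fold (adjusted p = 0.0343), a call that ended without either library of steady state (0.0736 and 0.0761) and without 7 other libraries taken singly.

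Heat shock genes are switched on by Hsf1, which binds repeats of the letters GAA and their complement. The 250 bases before the start site, from RefSeq in build GRCm38.p6, are printed 5′ to 3′ on the gene's strand for the 3 genes that hold such a motif, because these genes moved together. All 5 genes matched the table. Capitals mark GAANNTTC in Hspa1a and Hspa1b and TTCNNGAA in Hsph1, and each motif reads the same on both strands. The motif of the Hsp70 pair starts 104 bases before the start site and that of Hsph1 33 bases before the start printed here, or 54 before its other start.
Hspa1a, chr17:34972157-34972406, minus strand: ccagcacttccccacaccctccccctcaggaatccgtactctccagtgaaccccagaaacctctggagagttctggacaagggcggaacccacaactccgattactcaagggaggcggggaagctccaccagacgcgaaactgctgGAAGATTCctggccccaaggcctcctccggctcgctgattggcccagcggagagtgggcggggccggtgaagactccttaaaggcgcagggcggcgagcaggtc
Hspa1b, chr17:34959239-34959488, minus strand: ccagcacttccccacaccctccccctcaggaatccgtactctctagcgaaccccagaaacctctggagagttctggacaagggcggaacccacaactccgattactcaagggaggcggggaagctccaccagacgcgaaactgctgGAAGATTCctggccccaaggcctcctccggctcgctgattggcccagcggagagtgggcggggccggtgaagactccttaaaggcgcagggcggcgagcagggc
Hsph1, chr5:149636337-149636586, minus strand: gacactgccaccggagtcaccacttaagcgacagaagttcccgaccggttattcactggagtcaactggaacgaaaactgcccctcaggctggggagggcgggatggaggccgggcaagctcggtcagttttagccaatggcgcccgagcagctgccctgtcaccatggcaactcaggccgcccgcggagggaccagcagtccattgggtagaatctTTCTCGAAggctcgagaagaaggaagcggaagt
Neither motif was found in the same window of Dnajb1 (either of its 2 starts) or Dusp1. GAANNTTC occurs in 6.69% and TTCNNGAA in 7.17% of 32851 promoter windows of this length, so these matches describe the letters only.

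Metabolic and lysosomal lists had few calls and medians above 0. Hmox1, the heme oxygenase that breaks down heme, was the only called gene of 18 for heme and iron. It was 205 and 107 CPM at steady state, 431, 456, 276 and 261 CPM at onset and 274 to 693 CPM at progression (3.20-fold higher, adjusted p = 0.0211, and 0.108 without D0 B). Of 18 lysosomal genes, Ctsd and Lipa, the acid lipase, rose. Lipa was 212 and 190.2 CPM at steady state and 341 to 416 CPM at progression (adjusted p = 0.0386), and was not called without D0 B (0.106) or any of 7 other libraries. The median log2 change was 0.66 for heme and iron and 0.48 for lysosomal enzymes. Vegfa, the endothelial growth factor, rose from 25.7 and 24.2 CPM to 65.3 to 216 CPM (adjusted p = 0.0274), and was not called without D0 A (0.0982), D0 B (0.0848) or D9 B (0.0517).

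None of 16 macrophage identity genes was called in either direction, and their median log2 change was 0.03. No gene was called among 11 costimulatory, 15 efferocytosis, 10 complement, 17 cell cycle and 11 nonclassical monocyte genes. Of 23 transcription factors of macrophages, Id3 and Klf2 fell. Id3, which helps to keep Kupffer cells in their state, was 1319.7 and 1748 CPM at steady state and 202 to 549 CPM at progression (3.98-fold lower, adjusted p = 0.00468, and 0.108 without D0 B). Klf2, a factor of quiescent cells, was 543 and 913 CPM at steady state and 145 to 386 CPM at progression (adjusted p = 0.0195, and 0.36 without D0 B).

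**Figure D3:**
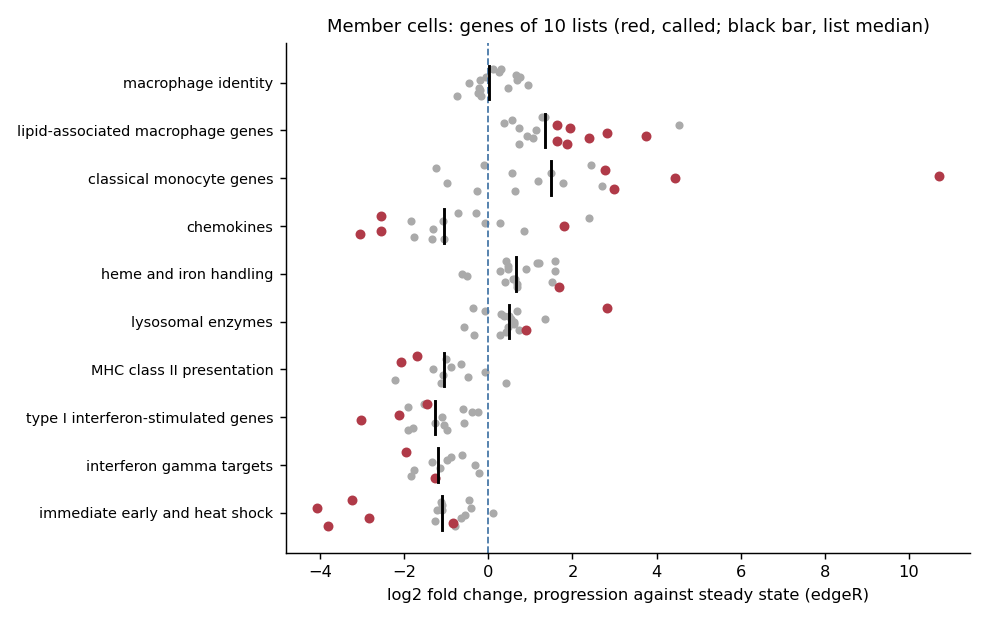
Log2 fold change of each tested gene at progression against steady state for 10 gene lists, with called genes in red, the others in grey and the median of a list as a black bar. The dashed line is the median of all genes tested. Bars of the lipid-associated (1.36) and monocyte (1.48) lists lie right of it, and those of the interferon (−1.26, −1.20) and heat shock (−1.09) lists lie left.

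Other genes were named by size alone. Among called genes whose log2 CPM averaged 5 or more, the 8 largest rises were those of Chil3, Fn1, AA467197, Syngr1, Gpihbp1, Rai14, Thbs1 and Clec4d. Clec4d, a C-type lectin of myeloid cells, was 24.3 and 7.27 CPM at steady state and 53.3 to 198 CPM at progression (adjusted p = 0.0204). None of these 8 was called without D0 B, where their adjusted p-values lay between 0.069 and 0.137. Their log2 changes without D0 B stayed at 2.35 or more, with that of AA467197 at 4.12 against 4.10 and that of Thbs1 at 2.36 against 2.98. Gpihbp1 also lost its call with doublets removed (adjusted p = 0.103), under the stricter gate (0.0594) and without D19 A (0.0619). Clec4d lost its call under the stricter gate as well (0.0572). The 8 largest falls were those of Cd207, Hspa1b, H2-M2, Hspa1a, Ly6a, Lilra5, Mmp13 and Hsph1, all described above.

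Genes of other cell types moved in members as well. At progression, 7 of these marker genes fell, the dendritic cell genes Batf3 and Xcr1, the neutrophil gene Retnlg, Cd4, the B cell genes Cd79a and Cd79b and the hepatocyte gene Mup3, and none rose. By list these were 2 of 11 dendritic cell, 1 of 6 neutrophil, 1 of 7 T and NK cell, 2 of 3 B cell and 1 of 11 hepatocyte genes tested. None fell of 10 endothelial, 8 cholangiocyte, 7 stellate cell and 4 red blood cell and platelet genes. Over all genes tested, 1.32% were called lower. Without D0 B, the calls of Xcr1 (adjusted p = 0.774), Batf3 (0.418), Cd79a (0.128), Retnlg (0.0924) and Cd79b (0.0875) were lost, Batf3 also without D9 B (0.0684) and Xcr1 without 8 other libraries taken singly. Cd79a was 14.9 CPM in D0 A, 176 CPM in D0 B and 0 to 1.94 CPM on DDC. The summed markers of B cells, in plain CPM as for all sums here, were 185 and 458 CPM at steady state. They were 50.8 to 157 CPM at onset and 40.3 to 106 CPM at progression. Dendritic cell markers summed to 310 and 878 CPM at steady state, 204 to 536 CPM at onset and 103 to 553 CPM at progression. Hepatocyte markers summed to 1151 CPM in D0 A and 459 CPM in D0 B and to 415 to 773 CPM on DDC. Cholangiocyte markers summed to 717 and 383 CPM at steady state, 626 to 3848 CPM at onset and 734 to 2136 CPM at progression, where all 6 libraries lay above steady state and no single marker was called. This sum includes Spp1 and Anxa5, which gave 182 and 471 of the 734 CPM in D19 B, and Spp1 is also in the lipid-associated list. Red blood cell and platelet markers summed to 378 to 501 CPM at steady state, 86.4 to 311 CPM at onset and 295 to 1098 CPM at progression, with a median log2 change of 1.93 over the 4 tested at progression. Pf4, also a gene of the chemokine list, gave 377 of the 378 CPM in D0 B and 309 of the 313 CPM in D19 B. Stellate cell markers summed to 1258 CPM in D0 A and 5.90 CPM in D0 B, and endothelial markers to 1682 and 1002 CPM there against 502 to 3189 CPM on DDC. Dnase1l3 alone gave 963 of the 1002 CPM in D0 B, where Clec4g and Lyve1 had no UMI. B cell markers were thus higher in both libraries of steady state than in any DDC library, and the part of such RNA in the falls was not tested. The stricter gate removes cells with a UMI of Flt3, Xcr1, Siglech, Cd79a, Ncr1, S100a8 or Alb. Under it, 36 of 45 named genes that could be fitted, out of 53, remained called at progression. It uses no cholangiocyte, stellate, endothelial, red blood cell or platelet gene and does not remove free RNA, whose part in these calls was not tested.

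Onset against steady state asked how early these changes appeared. Of 9586 genes, 62 were called (0.647%), with 24 higher (0.25%) and 38 lower (0.396%). Of 26 called genes named here or in the lists, 13 were no longer called without D0 B and 6 without D0 A. The 8 that were called whichever library was left out were Ccl7, Ccl8, Ccl9, Cd207, Dnajb1, Lgals1, Lilra5 and S100a4. Onset and progression were set against the same 2 libraries, so their values are given side by side and their likeness is no result.

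Ccl8 was called lower (log2 −7.52 ± 0.75 SE, adjusted p = 5.02e-04), and so was Ccl7 (log2 −4.41 ± 0.60 SE, adjusted p = 0.00428, and 0.189 under the stricter gate). Lilra5 was 12.0-fold lower (adjusted p = 0.00133) and Dnajb1 5.41-fold lower (adjusted p = 0.00428). Cd207 was 91.3-fold lower in the fit (adjusted p = 0.00428), with 1 onset library above 0. Ccl9 was 3.504-fold higher (adjusted p = 0.00428). Lgals1, which encodes galectin-1, was 98.6 and 217 CPM at steady state and 494, 959.6, 608 and 1279 CPM at onset (log2 2.41 ± 0.40 SE, adjusted p = 0.0136). For Lilra5, Dnajb1, Ccl9 and Lgals1, the libraries of onset and of progression overlapped. Of the marker genes of other cells, Cd79a (log2 −9.90), Reln (log2 −8.57) and Cd79b (log2 −2.58) were called lower at onset and none higher. By list these were 2 of 3 B cell and 1 of 7 stellate cell genes tested, and the remaining lists of other cells had no call. Over all genes tested, 0.396% were called lower. Cd79a and Reln had no UMI in the onset libraries. With the marker genes of other cells left out, Mmrn1 had the largest fall of the fit, but its call came from D0 A (adjusted p = 1 without it). Rai14, Akap12, Plec, Gda and Plxnc1 were the other genes among the 8 largest rises, and Gadd45g among the falls. None of these 6 was called without D0 B, where their adjusted p-values lay between 0.0568 and 0.404 and their log2 changes ranged from −0.67 for Gadd45g (−2.06 with it) to 2.79 for Rai14 (3.05 with it).

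Of the lipid-associated list, Capg, Lgals3 and Lpl were called higher at onset and none was lower, with a median log2 change of 1.21 against −0.0027 over all genes tested. Lpl was 4.42-fold higher (adjusted p = 0.0129, and 0.057 without D0 B), and Lgals3 3.99-fold (adjusted p = 0.0204, and 0.0593 without D5 A). Capg was no longer called without D0 A (0.12) or any of 9 other libraries. S100a4 was the only called gene of 15 of the classical monocyte list. No gene of the type I interferon list was called at onset, and the median was −0.34. Cd163, the scavenger receptor of hemoglobin, was 16.2 and 17.0 CPM at steady state, 1.26, 0, 0 and 1.79 CPM at onset and 6.37 to 19.4 CPM at progression. It was called at onset (adjusted p = 0.0216, and 0.0584 without D0 B, with 3 other libraries of like effect) and not at progression (adjusted p = 0.594).

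Progression against onset gave 4 called genes of 9586 (0.0417%), of which 2 were higher (0.0209%) and 2 lower (0.0209%). A p under 0.05 before adjustment was reached by 628 genes. Ccl8 was called higher (log2 4.97 ± 0.75 SE, adjusted p = 0.0436) and Ifi44 lower (log2 −2.07 ± 0.33 SE, adjusted p = 0.0477). Mmrn1, an endothelial and platelet gene, was called higher, and Serpina1e, a hepatocyte gene, lower, both named after their values were seen. Mmrn1 was 132 CPM in D0 A, 43.2, 133 and 90.3 CPM in the protocol A libraries of progression, 1.33 CPM in D25 B and 0 in the others. Summed endothelial markers were higher with protocol A than with protocol B on each day but day 25, where they were 914 and 1111 CPM. Dnase1l3 is part of these sums and gave 963 of the 1002 CPM in D0 B. The calls of Ccl8, Ifi44 and Mmrn1 were each lost when single libraries were left out, among them D3 A, which gave adjusted p-values of 0.239, 0.377 and 0.239. All 15 type I interferon genes tested had a log2 change under 0 here too, with a median of −1.05, and only Ifi44 was called. Ly6a (log2 −1.76 ± 0.33 SE) and Cd163 (log2 3.45 ± 0.63 SE) had an adjusted p of 0.0919.

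Kupffer cells of the same libraries served to ask which changes at progression differed between both macrophage populations. In a model with the library as a block, the change differed for 17 of 10842 genes (0.157%), of which 4 (0.0369%) changed more upwards in members and 13 (0.12%) more downwards. D3 B was left out with 12 Kupffer cells. Leaving out D0 A ended 15 of these calls and leaving out D0 B ended 11, and none was called in every such fit. The levels below are CPM scaled jointly over both populations.

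Tgfbi and Fn1, matrix proteins induced by TGF-β, differed in favour of members. Tgfbi was 253 to 296 CPM at steady state and 725 to 1085 CPM at progression in members, against 142 to 158 and 134 to 198 CPM in Kupffer cells (log2 difference 1.54 ± 0.29 SE, adjusted p = 0.0357, and 0.138 without D0 A). Fn1 was 4.44 to 34.6 and then 205 to 612 CPM in members, against 0 to 54.2 and then 0 to 63.2 CPM in Kupffer cells (log2 difference 4.25 ± 0.83 SE, adjusted p = 0.0401, and 1 with a reversed sign without D0 A). Pmepa1, a membrane protein that dampens TGF-β signalling, differed by log2 1.66 ± 0.31 SE (adjusted p = 0.0258, and 0.271 without D0 A). Lpl was 76.5 to 154 and then 481 to 720.0 CPM in members and 893 to 1315 and then 1839.7 to 2395 CPM in Kupffer cells, so the step was larger and the level lower in members (log2 difference 1.59 ± 0.27 SE, adjusted p = 0.0164, and 0.135 without D0 B).

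Among genes whose change was more downward in members, Mmp13 went from 157 to 213 CPM down to 0 to 44.3 CPM, while Kupffer cells held 0 to 17.7 and then 5.14 to 39.9 CPM (log2 difference −4.49 ± 0.59 SE, adjusted p = 0.00267, and 0.0863 without D0 A). Lilra5 went from 169 to 198 CPM down to 4.87 to 26.1 CPM in members and from 237 to 248 CPM down to 85.1 to 149 CPM in Kupffer cells (log2 difference −2.62 ± 0.38 SE, adjusted p = 0.00585, and 0.0674 without D0 A). Cd207 fell from 128 to 332 CPM to 0.508 to 21.1 CPM in members and ran from 201 to 287 CPM to 86.2 to 218 CPM in Kupffer cells (log2 difference −3.86 ± 0.65 SE, adjusted p = 0.0154, and 0.139 without D0 A). For Lilra5 and Cd207, all member libraries of progression lay under all Kupffer libraries. Mmp12, the macrophage elastase, overlapped between stages in members and not in Kupffer cells. It was 0 to 52.9 and then 472 to 1769.5 CPM in Kupffer cells and 201 to 307 and then 221 to 892 CPM in members (log2 difference −3.42 ± 0.67 SE, adjusted p = 0.0401, and 0.221 without D0 B). Cadm1, an adhesion molecule, went from 169 to 354 CPM down to 28.6 to 181 CPM in members and from 205 to 283 CPM to 180.0 to 347 CPM in Kupffer cells (log2 difference −2.02 ± 0.33 SE, adjusted p = 0.0154, and 0.191 without D0 A).

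**Figure D4:**
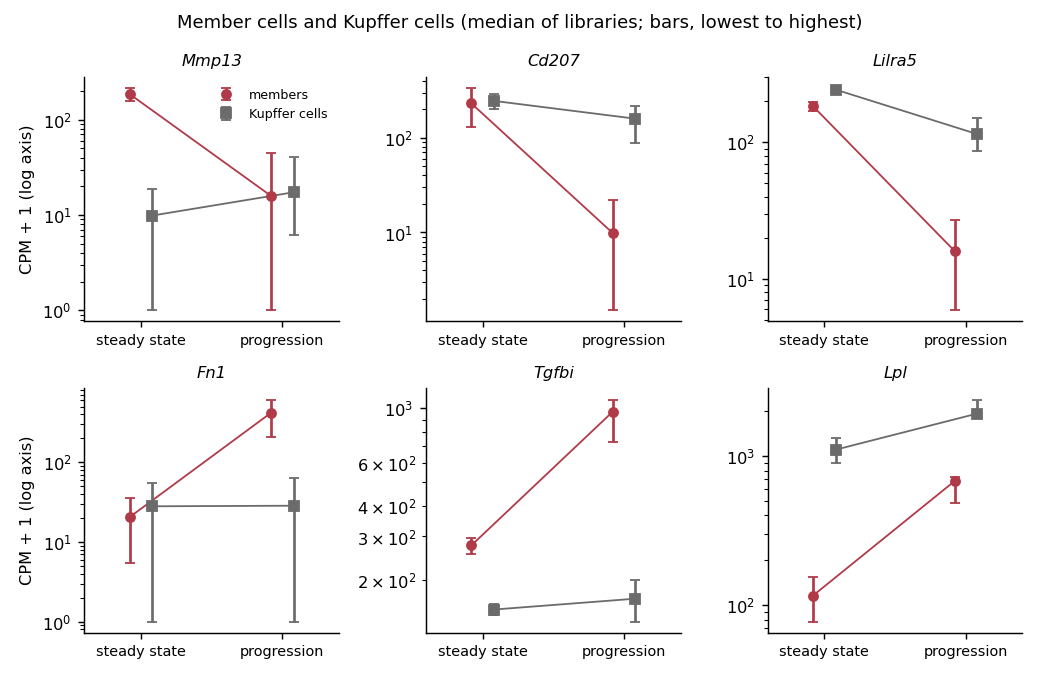
Level of 6 genes in members (red circles) and Kupffer cells (grey squares) at steady state and progression, as CPM plus 1 on a log axis that differs between panels. Points are medians of libraries and bars run from the lowest to the highest library. Mmp13, Cd207 and Lilra5 drop in members, Cd207 from a median of 229.7 to 8.85 CPM, while Fn1 and Tgfbi rise in members and stay near their level in Kupffer cells.

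Gpnmb-positive macrophages and monocytes were set beside members without a test, since the gates define the populations. Trem2 was 522 to 744 CPM in members at progression, 776 to 1717 CPM in Gpnmb-positive macrophages and 0 to 149 CPM in monocytes. Spp1 was 185 to 1560 CPM in members, 1595 to 4323 CPM in Gpnmb-positive macrophages and 24.4 to 91.1 CPM in monocytes. For both genes, members lay between the other populations without an overlap of the library ranges. Ccr2 ran the other way among macrophages, with 456 to 975.1 CPM in members and 147 to 284 CPM in Gpnmb-positive macrophages. Ms4a7 was alike in both, at 318 to 869 CPM and 244 to 862 CPM.

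Isolation protocol was a term of every fit. Between protocols B and A, 847 genes differed in members (8.84%), with 297 higher (3.1%) and 550 lower (5.74%) with protocol B. This comparison was added after the data had been seen. It sets 6 libraries against 6, so its count is not comparable with those of the stages. With protocol B, 8 of 12 MHC class II genes were higher and none lower, with a median log2 difference of 1.02. Of the efferocytosis and scavenger receptors, 6 of 15 were lower and none higher, among them the mannose receptor Mrc1 and Stab1. Among markers of other cells, 8 of 11 dendritic cell genes and 6 of 7 T and NK cell genes were higher with protocol B, 1 dendritic cell gene was lower, and 8 of 10 endothelial genes were lower. The Itgax gate and free RNA of co-sorted cells cannot be told apart here.

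STOP asked what the members looked like after 7 days without DDC. It is 1 library of 93 members and is set beside D19 B, of the same protocol and 193 members, with no replicate and no test. Intervals are exact 95% Poisson intervals of the UMI sums and cover counting error only, and levels are plain CPM of a library without TMM. Of 789 genes with at least 200 CPM in 1 of both libraries, 489 had separate intervals (62.0%), 277 higher in STOP (35.1%) and 212 lower (26.9%).

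Of the genes called lower on DDC, several had a higher level in STOP and others did not. Ccl7 was 313 CPM in STOP, 15.5 CPM in D19 B and 193 CPM in D0 B, which is 20.3-fold higher than in D19 B (interval 14.0 to 30.3). Ccl8 was 179 CPM in STOP, 21.0 CPM in D19 B and 155 CPM in D0 B, with a ratio of 8.56 (interval 6.13 to 12.2). The 218 Ccl8 UMIs of STOP came from 11 of 93 members. Ly6a was 394 CPM against 18.96 CPM in D19 B and 352 CPM in D0 B, and Cd81 was 763 CPM against 169 CPM and 1338 CPM. For Cd207, 51 UMIs in 3 cells gave 42.0 CPM against 1 UMI and 0.499 CPM in D19 B (ratio 84.1, interval 14.4 to 3387). Ccl7, Ccl8 and Ly6a were thus at or above their level in D0 B, with no interval given for D0 B, and Cd81 and Cd207 lay between D19 B and D0 B. Ccl4 was 1027 CPM in STOP, 849 CPM in D19 B and 3494 CPM in D0 B, and Cd74 was lower in STOP than in D19 B, with 17844 against 20560.2 CPM. The intervals of Dnajb1 (59.2 and 38.4 CPM, against 303 CPM in D0 B) and Id3 (567 and 501 CPM, against 1418 CPM) overlapped. Those of Hspa1a (116 and 28.9 CPM), Hspa1b (106 and 14.5 CPM) and Hsph1 (53.5 and 12.5 CPM) were separate, with STOP higher. In D0 B these genes were 464, 378 and 56.0 CPM. Irf7 (110 and 27.9 CPM), Klf2 (468 and 151 CPM) and Ifi44 (14.8 and 0.998 CPM, 2 UMIs in D19 B) were also higher in STOP with separate intervals. Summed endothelial markers were 1414 CPM in STOP and 569 CPM in D19 B, those of T and NK cells 499 and 253 CPM and those of stellate cells 1394 and 19.95 CPM, and their part in the values of STOP was not tested. Dnase1l3 alone gave 763 and 231 CPM of the endothelial sums. Ccl5, also a gene of the chemokine list, gave 348 and 154 CPM of the T and NK cell sums.

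Of the genes described as higher on DDC, several stood lower in STOP than in D19 B and others did not. Trem2 was 367 CPM in STOP, 628 CPM in D19 B and 155 CPM in D0 B (ratio 0.585 to D19 B). Lpl was 267 CPM, 668 CPM and 67.8 CPM in the same order (ratio 0.399), and S100a4 and Lgals3 were 402 and 1353 CPM in STOP against 827 and 2088 CPM in D19 B. Mmp12, which was not called on DDC, was 144 CPM in STOP, 532 CPM in D19 B and 272 CPM in D0 B. Fn1 was higher in STOP than in D19 B, with 323 against 201 CPM, as were Thbs1 (298 against 189.6 CPM), Lgals1 (599.8 against 490.4 CPM) and Spp1 (426 against 182 CPM). The intervals of Hmox1, Ccr1, Syngr1 and Vegfa overlapped. Mmp13 was 11.5 and 14.0 CPM with overlapping intervals, far from the 139.5 CPM of D0 B, and Lilra5 was 32.1 and 14.97 CPM against 149 CPM. Trem2, Lpl, S100a4, Lgals3 and Lilra5 stood between D19 B and D0 B, and Mmp13 did not differ from D19 B beyond counting error.

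Leaving out the marker genes of other cells and the gene classes named in the methods, the largest ratios were those of Fabp1, Ly6a, Ccl7, Ccdc80, Apoc1, Sparc, Cd81 and Fabp5 upwards, and of Lars2, Tnip3, Mmp12, Neat1, Lpl, Plaur, Ccdc88a and Cd14 downwards. Fabp1, the fatty acid-binding protein of hepatocytes, was 212 CPM in STOP and 0.499 CPM, 1 UMI, in D19 B. Hepatocyte markers summed to 1029 CPM in STOP and 601 CPM in D19 B. Among the marker genes left out, Col3a1, a collagen of fibroblasts and stellate cells, was 554 CPM in STOP and 1.497 CPM, 3 UMIs, in D19 B, a larger ratio than that of Ly6a. Sparc, a matrix protein of stellate and endothelial cells, was 479 against 94.8 CPM.

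**Figure D5:**
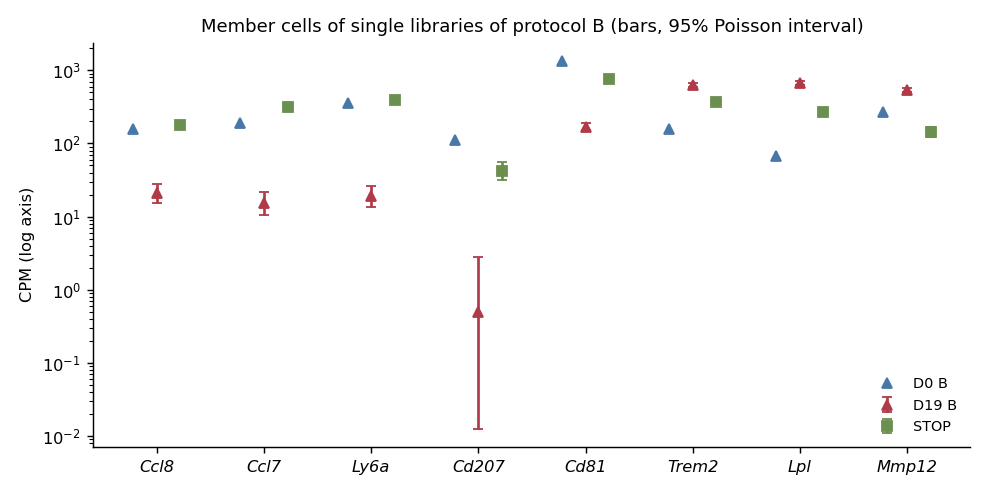
Level of 8 genes in members of 3 single libraries of protocol B, as CPM on a log axis. Blue triangles are D0 B, red triangles D19 B and green squares STOP, and bars are exact 95% Poisson intervals of STOP and D19 B. Ccl8, Ccl7, Ly6a, Cd207 and Cd81 are higher in STOP than in D19 B, Ccl7 with 313 against 15.5 CPM, and Trem2, Lpl and Mmp12 are lower.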

How the data were processed

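Livers of a DDC diet time course and of recovery were profiled by droplet-based single-cell RNA-seq in 13 libraries. The deposited values are raw UMI counts for each gene symbol and barcode, not normalized and not filtered, which the authors made with kallisto on GRCm38 per the submitters' processing notes (versions not given). Counts of members were summed per library (at least 20 cells) and tested with edgeR 4.0.16 in R 4.3.3: TMM, the filterByExpr filter by stage, a quasi-likelihood fit of stage and protocol to 12 libraries, and Benjamini-Hochberg adjustment at 0.05 over all 9586 genes. Standard errors are the log2 change divided by the square root of F. Shares were compared by exact permutation within protocol (scipy 1.17.1). The stage fits and the fit with Kupffer cells were run on simulated counts in which 200 genes changed by log2 2. The share recovered was 77.5% for onset and 82.5% for progression against steady state. It was 96% for progression against onset and 34% for the interaction with Kupffer cells. The members, gene lists and tests were chosen with earlier results of these data known. Named genes are those of the lists, and per comparison the 8 largest called log2 changes each way at an average log2 CPM of 5 or more, with predicted, mitochondrial, ribosomal, receptor segment and other-cell genes left out. For STOP they are the 8 largest ratios each way among genes of at least 200 CPM with separate intervals and the same genes left out. Precision follows the members per library, 28 to 510. Alternatives were DESeq2 1.42.0, other size factors and filters, thinned counts, stricter gates, doublets removed (scanpy 1.11.5), protocols alone and each library left out.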

Additional observations from a re-analysis of the deposited data

Results flagged for a closer look

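Single libraries stood apart from the others of their stage in 11 of 160 groups of 4 or 6 values (Dixon's test at 95%), where chance gives about 1 in 20. In D9 A, the heat shock genes Hspa1b (468 CPM), Hspa1a (289.6 CPM) and Hsph1 (52.3 CPM) lay above the other progression libraries. D9 B was high for Anxa4 (122 CPM) and low for Gbp3 (10.9 CPM). D19 A was high for Klf2 (386 CPM) and low for Lpl (457 CPM). At onset, Cd81 was high in D3 A (514 CPM), Samd9l in D3 B (94.4 CPM), and Cd207 (5.96 CPM) and H2-Ob (35.8 CPM) in D5 B.

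The change from steady state to progression differed between members and Kupffer cells in the interaction test for 17 genes, given as log2 differences of member minus Kupffer change. It was larger in members for Fn1 (4.25), Pmepa1 (1.66), Lpl (1.59) and Tgfbi (1.54). It was smaller or more negative in members for Mmp13 (−4.49), Mras (−3.89), Cd207 (−3.86), Mmp12 (−3.42), Gm3336 (−3.36), Retnlg (−3.32), Nes (−3.31), Xlr (−3.14), Tlr12 (−2.78), Lilra5 (−2.62), Galnt3 (−2.42), Cadm1 (−2.02) and Cep85 (−1.63). Retnlg is a neutrophil gene, and the summed neutrophil markers of members were 363 and 1371 CPM at steady state and 135 to 1620 CPM at progression.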

How the results depend on the processing

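Calls changed more often than directions. For progression against steady state, 194 genes were called, against 358 with DESeq2, 665 without the filter on low counts and 88 without the protocol term, and 120 (without D0 B, 50 of them shared) to 468 (without D0 A, 124 shared) with a library left out, where leaving out D9 B gave 126. For onset against steady state, 62 were called, against 199, 534 and 15 in the same order, 31 with doublets removed, 33 with at least 50 cells a library and 22 to 203 with a library left out (203 without D0 A, 22 without D5 A). For progression against onset, 4 were called, against 30 with DESeq2, 189 without the filter, 1 with thinned counts, 22 in protocol A alone, 0 in protocol B alone, with doublets removed and without the protocol term, and 0 to 16 with a library left out (0 without D3 A, D5 A, D19 A, D19 B or D25 A and 16 without D5 B). The interaction with Kupffer cells gave 17 calls, against 26 with relative log expression size factors, 100 without the filter and 8 (without D0 A) to 26 with a library left out. Genes called higher made up 34.5% at progression, against 47.4% without the filter, 46.1% with thinned counts and 45% without D0 B, and 38.7% at onset, against 58.4% under the stricter gate and 52.4% with thinned counts. With thinned counts, 206 genes were called at progression, of which 113 were among the 194, and 42 at onset, of which 21 were among the 62. Under the stricter gate, 134 were called at progression (94 shared) and 77 at onset (28 shared). Without the filter, the median log2 change of all genes at progression was 0.16. The difference of shares between DDC and steady state lay between −21.4 and −4.16 points with a library left out, and that of progression and onset was −0.964 under the stricter gate, −2.33 in protocol B alone and −3.42 to 3.59 with a library left out. Mmrn1 at onset turned to a log2 change of 0.89 with thinned counts, and Fn1 against Kupffer cells ran from −2.13 (without D0 A) to 4.58 with a library left out. Of 53 named genes called at progression, 982 of 1208 values under the alternatives stayed called and 226 did not, with 0 reversed; at onset 436 of 591 stayed called. The causes were not tested. Depth per cell at steady state and the 28 members of D3 B limit what could be detected. No paired analysis was possible because the labels give the stages no replicate numbers, and the library block with Kupffer cells pairs populations of a library, not stages.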
